A study of Bos taurus with 30 samples.

Results

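The heat shock proteins and chaperones were described in the embryonic disc (ED) and the extra-embryonic membranes (EEM) of day 15 bovine embryos. Genes were chosen by symbol, as the HSP70 genes (HSPA), HSPH1, the HSP90 genes, the small heat shock proteins (HSPB), the J-domain genes DNAJA, DNAJB and DNAJC, BAG1 to BAG6, HSF1, HSF2, the PDIA genes, HSPD1 and HSPE1. In the count table of 35092 genes, 84 had such a symbol. Of these, 80 had at least 10 counts in at least 3 libraries and were kept as members, and DNAJB3, DNAJB7, DNAJC5G and HSPB3 did not. The whole table held 18122 genes past the same minimum. The members were 13 HSP70 genes, HSPH1, 3 HSP90 genes, 6 small heat shock protein genes, 4 DNAJA, 11 DNAJB and 27 DNAJC genes, 6 BAG genes, 2 HSF genes, 5 PDIA genes and the genes of the mitochondrial chaperonin, HSPD1 and HSPE1.

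The study compared embryos produced in vitro (IVP) with embryos conceived in vivo (IVV). For IVP, Holstein oocytes from slaughterhouse ovaries were matured, fertilized and grown in serum-free medium, and the embryos were placed in recipient cows on day 7 and flushed from the uterus on day 15. IVV embryos came from superovulated Holstein cows inseminated with semen of the same bull, and were also flushed on day 15. A pair of recipients and a pair of donors were used, so the cow and the procedure cannot be told apart, and embryos in which no disc was seen were discarded. Poly(A) RNA was sequenced in the ED of 7 IVP and 9 IVV embryos and in the EEM of 6 IVP and 8 IVV embryos. These 30 libraries came from 17 embryos, and 13 of them (5 IVP and 8 IVV) gave both tissues. Libraries held 48713218 to 63037371 counts. The labels do not give the sex, the morphology or the cow for each embryo.

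Heat shock proteins and other chaperones bind unfolded proteins and help them to fold, to move across membranes or to be degraded. HSP70 proteins work with J-domain proteins, which bring them their clients, and with exchange factors such as the BAG proteins and HSPH1. The transcription factor HSF1 switches on a small inducible set, led by HSPA1A, HSPA6 and DNAJB1, when proteins unfold in the cytosol, whereas HSPA8 and most other members are made in unstressed cells. The endoplasmic reticulum (ER) and the mitochondrion have their own chaperones, among them HSPA5, HSP90B1 and the PDIA proteins, and HSPA9, HSPD1 and HSPE1.

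NANOG, a transcription factor of the epiblast, ranged from 2.71 to 44.0 CPM (counts scaled to library size, with TMM factors) in the ED. In the EEM it ranged from 0 to 0.195 CPM. The summed level of 9 epiblast markers was 233 to 580 CPM in IVP and 225 to 999 CPM in IVV discs. It was 133 to 239 CPM in IVP and 107 to 178 CPM in IVV EEM, so that this sum overlapped between the tissues. The summed level of 15 trophoblast markers was high in both tissues, at 13442 to 75323 CPM in IVP and 33742 to 51423 CPM in IVV discs, and at 36730 to 87611 CPM in IVP and 37351 to 69771 CPM in IVV EEM, so the ED libraries also held RNA of trophoblast genes. In tissue pieces such as these, fewer cells of a type and less RNA per cell cannot be told apart. The summed level of 9 maternal blood genes was at most 2.36 CPM in any library, and that of 7 maternal uterus genes was 6.1 to 20.4 CPM. Among the uterus genes, SERPINA14, a secreted protein of the uterus, had at most 2 counts in any library, and 5 in the ED and 4 in the EEM passed the filter on low counts. XIST, the RNA of X inactivation in female cells, was under 1 CPM in all 13 IVP libraries and in both tissues of the IVV embryos VE3 and VE5. In the other IVV libraries it was at least 45.1 CPM. The IVP and IVV embryos thus also differed in XIST.

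Together, the 80 members held between 1.63% and 3.36% of the counts of a library. The mean share in the ED was 2.41% ± 0.504 (SD, n = 7) in IVP and 2.54% ± 0.398 (SD, n = 9) in IVV embryos. In the EEM it was 2.29% ± 0.202 (SD, n = 6) in IVP and 2.63% ± 0.300 (SD, n = 8) in IVV embryos. HSP90AB1, HSPA8, HSP90AA1, HSPA5 and HSP90B1 made up 60.1% of these counts, a share of reads that also rises with transcript length. The shares of the groups overlapped in both tissues.

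In both tissues, the stress-inducible genes HSPA1A, HSPA6 and DNAJB1 were lower in IVP than in IVV embryos, while most other members showed no such difference. For each tissue, all genes past the filter were fitted with edgeR (quasi-likelihood) and 1 surrogate variable, and p-values were adjusted by Benjamini-Hochberg over all genes tested. Genes with an adjusted p under 0.05 were called. In the ED, 76 members were tested. Of these, 5 were lower in IVP (6.58%), against 4.95% of all 15733 genes tested, and 1 was higher (1.32%), against 1.4% of all genes. In the EEM, 73 members were tested. Of these, 3 were lower (4.11%), against 1.52% of all 14718 genes tested, and 1 was higher (1.37%), against 2.29% of all genes. The median log2 fold change of the members was 0.00 in the ED and -0.04 in the EEM, beside -0.01 and 0.00 over all genes tested. The share of called members was therefore close to that of all genes in the ED, and rested on few genes in the EEM.

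HSPA1A (Entrez 282254) encodes the inducible HSP70 of the cytosol. In the ED, it ranged from 73.8 to 221 CPM in IVP (median 126) and from 183 to 703 CPM in IVV embryos (median 400). Only VE29 among the IVV discs, with 183 CPM, lay inside the range of the IVP discs, and 6 of the 7 IVP discs were below every IVV disc. The log2 fold change was -1.59 (SE 0.29, adjusted p = 0.00162), 3.01-fold lower in IVP. In the EEM, it ranged from 76.0 to 246 CPM in IVP (median 133) and from 311 to 1209 CPM in IVV embryos (median 452), and the groups did not overlap. The log2 fold change was -2.03 (SE 0.34, adjusted p = 0.00055), 4.09-fold lower in IVP.

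HSPA6 (Entrez 539835), another inducible HSP70 gene that is nearly silent in unstressed cells, had the largest fold change of the members tested. In the ED, it ranged from 0.239 to 1.81 CPM in IVP (median 1.10) and from 3.0 to 92.5 CPM in IVV embryos (median 17.4), and the groups did not overlap. The log2 fold change was -4.43 (SE 0.69, adjusted p = 0.000266), 21.6-fold lower in IVP. In the EEM, it ranged from 0.0699 CPM, which is 4 counts, to 3.38 CPM in IVP (median 1.41), and from 2.52 to 149 CPM in IVV embryos (median 12.9). VE4 was the only IVV embryo within the range of the IVP EEM. HSPA6 had a log2 fold change of -4.33 (SE 0.85, adjusted p = 0.00264). VE5 had the highest level in both tissues. Without this embryo the log2 fold change was -3.59 (adjusted p = 0.000127) in the ED and -3.41 (adjusted p = 0.00293) in the EEM, and without VE28 it was -3.68 (adjusted p = 0.0185) in the EEM.

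DNAJB1 (Entrez 538426) is the main J-domain partner of HSPA1A. It ranged from 30.2 to 117 CPM in the ED of IVP (median 74.3) and from 67.0 to 288 CPM in the ED of IVV embryos (median 174). VE29 and VE6 were the IVV discs with the lowest levels, and they lay among the IVP discs. DNAJB1 had a log2 fold change of -1.20 (SE 0.26, adjusted p = 0.0057). In the EEM, it ranged from 55.8 to 142 CPM in IVP (median 77.7) and from 143 to 541 CPM in IVV embryos (median 274), so that the groups did not overlap, by a narrow margin. Its log2 fold change was -1.59 (SE 0.28, adjusted p = 0.000918), 3.01-fold lower in IVP.

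**Figure D1:**
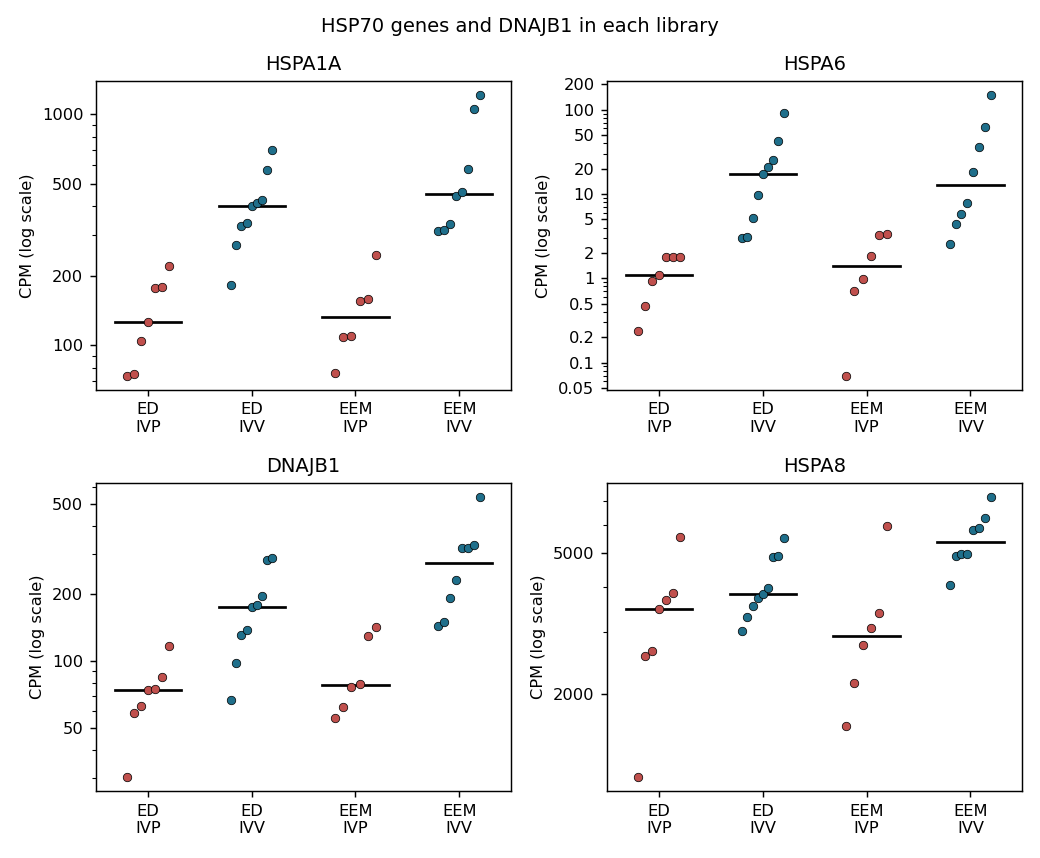
TMM-scaled CPM (log scale) of HSPA1A, HSPA6, DNAJB1 and HSPA8 in each of the 30 libraries, with IVP in red, IVV in blue and a black line at the group median. HSPA1A and DNAJB1 do not overlap between IVP and IVV in the EEM, HSPA6 does not overlap in the ED, and HSPA8 overlaps in both tissues.

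XIST differed between IVP and IVV embryos together with these genes, except in VE3 and VE5, the IVV embryos with XIST under 1 CPM. In VE3 and VE5, HSPA1A was 426 and 573 CPM in the ED and 311 and 1050 CPM in the EEM, where VE3 was the lowest of the 8 IVV embryos. Their HSPA6 was 9.61 and 92.5 CPM in the ED and 4.46 and 149 CPM in the EEM, and their DNAJB1 was 174 and 177 CPM in the ED and 229 and 321 CPM in the EEM. These values were above those of every IVP library of the same tissue. XIST was also added as a covariate, a choice made after seeing the data. HSPA1A, HSPA6 and DNAJB1 were called lower in both tissues in these fits, with adjusted p between 2.72e-05 and 0.0176 (edgeR). The log2 fold change of HSPA6 was then -5.70 in the ED and -6.24 in the EEM, and that of HSPA1A in the EEM was -2.75. Since XIST was low in all IVP libraries, these fits rest on VE3 and VE5, and they cannot tell XIST and the procedure apart.

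HSPA1A, HSPA6 and the other cytosolic HSP70 genes have similar sequences, and how reads that match several genes were counted is not given in the sources used here, so the split of reads among them is uncertain. As a share of the HSPA1A count, HSPA6 ranged from 0.262% to 1.41% in IVP discs and from 0.908% to 16.1% in IVV discs. In the EEM this share ranged from 0.0643% to 2.04% in IVP and from 0.568% to 14.1% in IVV embryos. Whether reads of HSPA1A were counted for HSPA6 was not tested. HSPA1L, a neighbour of HSPA1A known for its expression in male germ cells, was at most 1.21 CPM in any library, with log2 fold changes of -0.03 (95% interval -0.80 to 0.74) in the ED and -0.29 (-1.25 to 0.68) in the EEM.

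The other HSP70 genes were not called in either tissue. HSPA8 (Entrez 281831), the constitutive HSP70 of the cytosol, ranged from 1632 to 5937 CPM in the EEM of IVP (median 2915) and from 4075 to 7179 CPM in the EEM of IVV embryos (median 5368). In 5 of the 6 IVP embryos the level was below that of every IVV embryo, and IVP11 was above all IVV embryos but VE29 and VE3. HSPA8 had a log2 fold change of -0.80 (SE 0.26, adjusted p = 0.0931) and passed the threshold with DESeq2 (adjusted p = 0.0304) and without IVP11 (adjusted p = 0.0182). In the ED, it was -0.31 (95% interval -0.79 to 0.16). For HSPA4, an exchange factor for HSP70, the log2 fold changes were 0.15 (-0.26 to 0.56) and 0.07 (-0.37 to 0.50) in the ED and the EEM. HSPH1, of the same kind, had -0.16 (-0.57 to 0.25) in the ED and -0.70 (-1.20 to -0.20, adjusted p = 0.147) in the EEM. HSPA2, known for its role in sperm formation, had -0.31 (-0.78 to 0.16) and -0.27 (-0.87 to 0.34).

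Among the J-domain genes of the DNAJB group, 3 of 10 tested were lower in the ED of IVP embryos and 1 of 10 in the EEM, beside 4.95% and 1.52% of all genes. Besides DNAJB1, these were DNAJB13 and DNAJB5 in the ED. DNAJB13 (Entrez 520270), known from the flagella of sperm and from cilia, ranged from 0.134 to 1.00 CPM in IVP (median 0.430) and from 0.491 to 2.54 CPM in IVV discs (median 1.80), with a log2 fold change of -1.89 (SE 0.42, adjusted p = 0.00799). Its groups overlapped, with 5 of 7 IVP discs below every IVV disc. In the EEM, its log2 fold change was -1.62 (SE 0.48, adjusted p = 0.0577), and it depended on the fit. With XIST as a covariate it was -0.14 (adjusted p = 0.993), and without a surrogate variable it was -2.38 (adjusted p = 0.0315). It was also called without the filter on low counts (adjusted p = 0.0362) and in 5 of the 14 fits that left out an embryo (IVP14, IVPF9, VE19, VE28 or VE3), where the adjusted p was lowest without VE19 (0.0107). VE19, with 10 CPM, and VE29, with 5.36 CPM, were far above the other EEM libraries.

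DNAJB5 (Entrez 540083), a close relative of DNAJB1, ranged from 2.74 to 8.40 CPM in IVP (median 4.08) and from 7.20 to 12.1 CPM in IVV discs (median 8.87). The discs of IVPF10 and IVPF14 lay among those of IVV embryos. DNAJB5 had a log2 fold change of -0.88 (SE 0.25, adjusted p = 0.0348), and this call was lost in 9 of the 16 fits that left out an embryo (IVP10, IVP11, IVPF13, IVPF15, VE26, VE28, VE29, VE5 or VE6), with adjusted p of 0.0618 to 0.101. In the EEM, the log2 fold change was -0.73 (SE 0.28, adjusted p = 0.176). DNAJA1, a J-domain partner of HSPA8, had log2 fold changes of -0.41 (95% interval -0.84 to 0.01) in the ED and -0.47 (-0.97 to 0.02) in the EEM.

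DNAJC22 (Entrez 515215), a J-domain protein of membranes, was the only member called higher in IVP. In the ED, it ranged from 9.98 to 30.1 CPM in IVP (median 22) and from 8.83 to 11.3 CPM in IVV embryos (median 9.95). The IVV discs lay close together, and 6 of the 7 IVP discs were above all of them. In the IVP discs, IVP10, IVP11 and IVPF15 were at 9.98 to 12.9 CPM, and the other 4 were at 22 to 30.1 CPM. DNAJC22 had a log2 fold change of 0.90 (SE 0.22, adjusted p = 0.0164), and without IVPF13 the adjusted p was 0.0552. It was 0.0645 with 2 surrogate variables and 0.189 with XIST as a covariate (edgeR). EEM levels ranged from 10.5 to 28.8 CPM in IVP (median 12.9) and from 7.79 to 11.5 CPM in IVV embryos (median 8.52). Its log2 fold change was 0.89 (SE 0.25, adjusted p = 0.0449), and the call was lost in 10 of the 14 fits that left out an embryo (IVP14, IVPF14 or any IVV embryo), with adjusted p of 0.0534 to 0.135.

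In the DNAJC group, 1 of 26 genes tested in the ED and 1 of 25 in the EEM was called higher, DNAJC22 in each case, beside 1.4% and 2.29% of all genes. In the DNAJA group, 0 of 4 were called in either tissue, beside 4.95% lower and 1.4% higher of all genes in the ED and 1.52% and 2.29% in the EEM, with 1 of 4 at an unadjusted p under 0.05 in the ED and 0 in the EEM. Some members near the threshold, named after their values were seen, were DNAJC12 (log2 fold change -1.71, adjusted p = 0.0579) and DNAJA4 (-1.09, adjusted p = 0.0612) in the ED. DNAJC12 had at most 15 counts in an IVP disc and at most 70 in an IVV disc. It passed the filter on low counts mainly through the IVV discs, so its lower value in IVP is given as a description. HSPB6, a small heat shock protein known from muscle, had positive log2 fold changes of 0.98 in the ED and 1.04 in the EEM (adjusted p = 0.151 in each).

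**Figure D2:**
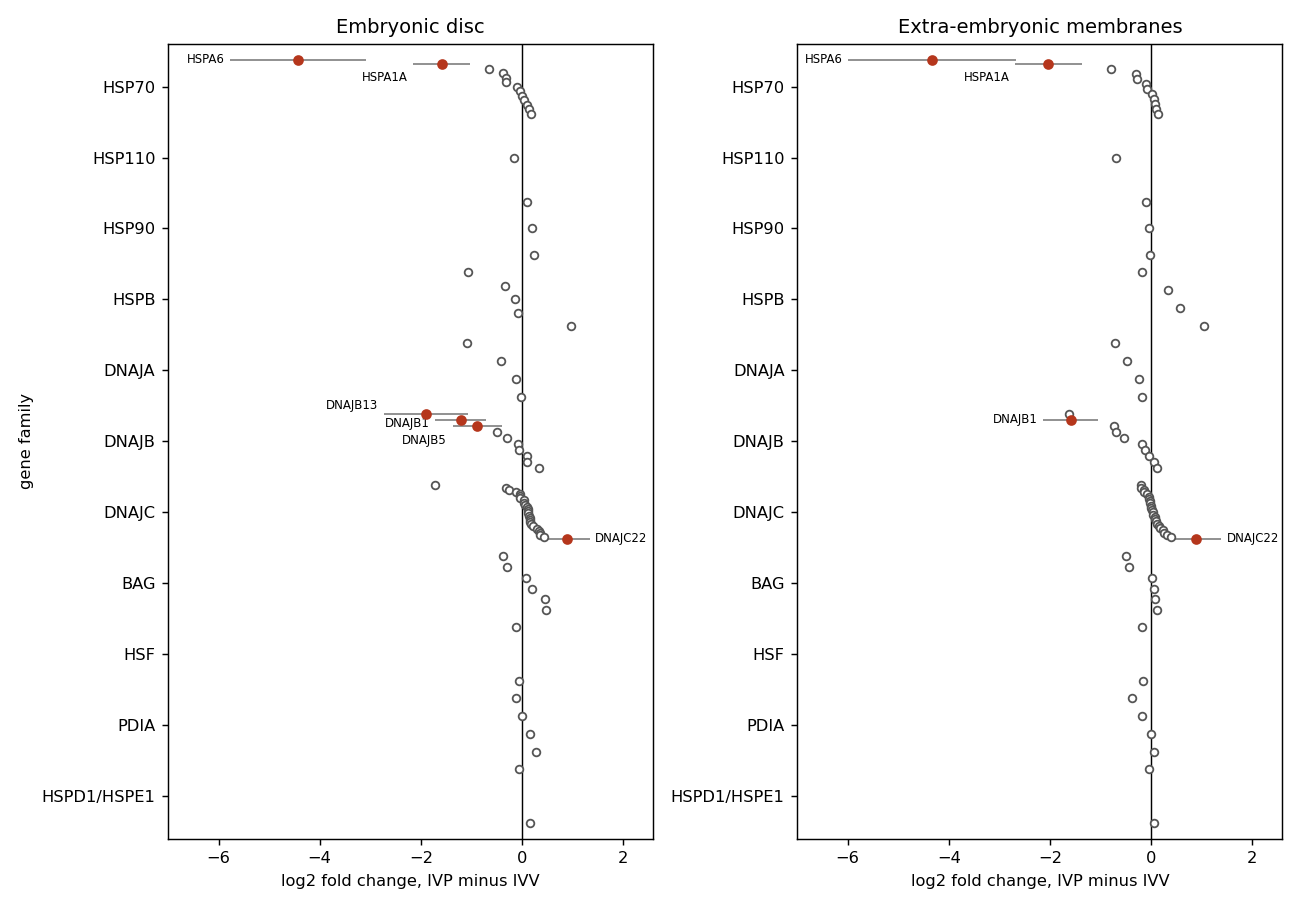
Log2 fold change of IVP against IVV for the 76 members tested in the ED (left) and the 73 tested in the EEM (right), by gene family. Red points are members with an adjusted p under 0.05 (edgeR), with grey lines for the 95% interval, and open points are the other members. HSPA6, HSPA1A and DNAJB1 lie to the left of zero in both tissues, DNAJC22 lies to the right, and most other members sit near zero.

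HSP90 genes, which finish the folding of kinases and steroid receptors, did not pass the test in either tissue. HSP90AA1, the HSP90 that stress can induce, ranged from 1798 to 4173 CPM in IVP discs and from 1596 to 3534 CPM in IVV discs. Its log2 fold change was 0.10 (95% interval -0.25 to 0.46) in the ED and -0.05 (-0.46 to 0.36) in the EEM. HSP90AB1, the constitutive form, had 0.24 (-0.15 to 0.63) and -0.03 (-0.49 to 0.43). Each of these 95% intervals lay within 2-fold. Across the 3 HSP90 genes, 0 had an unadjusted p under 0.05 in either tissue. Over all genes this held for 2902 of 15733 in the ED and 2016 of 14718 in the EEM.

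HSF1 and HSF2, the transcription factors of the heat shock response, did not pass the test in either tissue. HSF1 ranged from 25.7 to 113 CPM in IVP and from 29.3 to 105 CPM in IVV discs, with log2 fold changes of -0.06 (95% interval -0.66 to 0.55) in the ED and -0.17 (-0.67 to 0.34) in the EEM. For HSF2 these were -0.11 (-0.56 to 0.33) and -0.15 (-0.60 to 0.30). The activity of these factors was not measured. BAG3, which HSF1 also switches on and which sends HSP70 clients to autophagy, had log2 fold changes of -0.29 (-0.81 to 0.22) in the ED and -0.44 (-0.90 to 0.03, adjusted p = 0.452) in the EEM. Of the 6 BAG genes, 0 were called in either tissue and 1 had an unadjusted p under 0.05 in each. Over all genes, 4.95% were lower and 1.4% higher in the ED, and 1.52% and 2.29% in the EEM. An unadjusted p under 0.05 was found for 2902 of 15733 genes in the ED and 2016 of 14718 in the EEM. HSPB1, an inducible small heat shock protein, had -0.08 (-0.58 to 0.41) and 0.34 (-0.18 to 0.86).

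From general knowledge, 14 of the members were placed in the ER, which is not a full assignment, and 13 of them were tested. Of these, 0 were called in the ED (smallest adjusted p = 0.459) and 0 in the EEM (smallest adjusted p = 0.669). Over all genes, 4.95% were lower and 1.4% higher in the ED, and 1.52% and 2.29% in the EEM. Their log2 fold changes in the ED ran from -0.12 to 0.33, with 11 of the 13 ER members above zero, beside 7736 of all 15733 genes. In the EEM, those of the ER members ran from -0.37 to 0.13, with 6 of 13 above zero, beside 7448 of all 14718 genes. HSPA5, the HSP70 of the ER, ranged from 1051 to 3346 CPM in IVP discs (median 2238) and from 1195 to 3088 CPM in IVV discs (median 2023). EEM levels ranged from 1651 to 3325 CPM in IVP (median 2197) and from 1032 to 5205 CPM in IVV embryos (median 2468). The log2 fold changes were 0.04 (95% interval -0.43 to 0.50) and -0.07 (-0.63 to 0.48). PDIA3 and PDIA4, which form disulfide bonds, had 0.01 (-0.46 to 0.48) and 0.27 (-0.17 to 0.70) in the ED and 0.00 (-0.53 to 0.53) and -0.17 (-0.71 to 0.36) in the EEM. DNAJB9, a J protein induced by ER stress, had 0.10 (-0.34 to 0.54) and -0.05 (-0.52 to 0.43). For DNAJC3, another ER J protein, the values were 0.17 (-0.30 to 0.63) and -0.14 (-0.62 to 0.34), for HSP90B1, the HSP90 of the ER, they were 0.21 (-0.21 to 0.64) and -0.09 (-0.66 to 0.47), and for PDIA6 they were 0.16 (-0.26 to 0.59) and 0.06 (-0.49 to 0.62).

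The embryo with the highest level was compared between tissues for HSPA5, HSP90B1, PDIA3 and PDIA4 only. IVP10 had the highest HSPA5, HSP90B1, PDIA3 and PDIA4 of the IVP embryos in both tissues, with HSPA5 at 3346 CPM in the ED and 3325 CPM in the EEM. VE28 had the highest HSPA5 and PDIA3 of the IVV embryos in both tissues, whereas the highest HSP90B1 and PDIA4 were in VE4 and VE3 in the ED and in VE28 in the EEM. Its PDIA3 was 1791 CPM in the ED and 2224 CPM in the EEM, beside medians of 863 and 1090 CPM for the IVV group. VE28 was also the IVV embryo with the most HSPA1A and DNAJB1 in both tissues. For HSPA5, HSP90B1, PDIA3 and PDIA4, the range of CPM within each group was wider than the difference between the medians of IVP and IVV in that tissue.

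**Figure D3:**
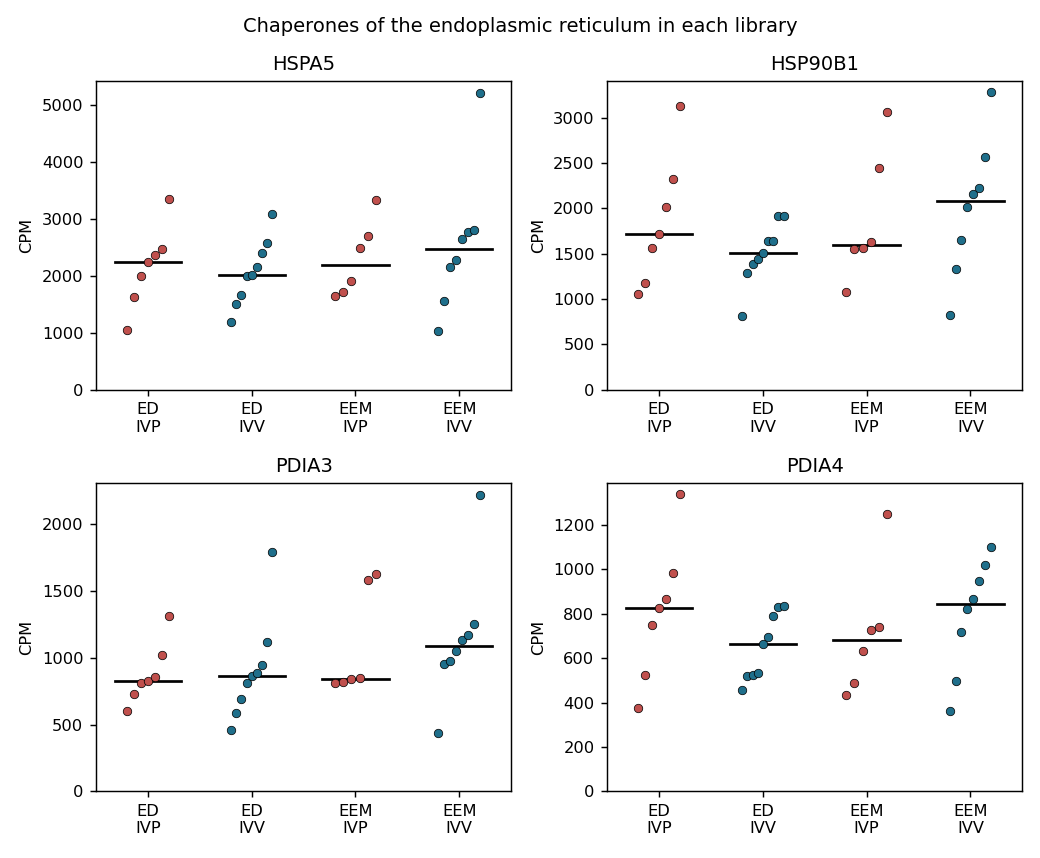
TMM-scaled CPM of HSPA5, HSP90B1, PDIA3 and PDIA4 in each library, with IVP in red, IVV in blue and a black line at the group median. IVP and IVV overlap in both tissues for each gene, and the highest points of PDIA3 in the IVV groups, at 1791 and 2224 CPM, are those of VE28.

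Of 9 members placed in mitochondria from general knowledge, 0 were called in either tissue (smallest adjusted p = 0.456 in the ED and 0.815 in the EEM). Over all genes, 4.95% were lower and 1.4% higher in the ED, and 1.52% and 2.29% in the EEM. HSPD1 and HSPE1, which together form the mitochondrial folding chamber, had log2 fold changes of 0.17 (95% interval -0.19 to 0.53) and -0.05 (-0.41 to 0.32) in the ED and of -0.04 (-0.44 to 0.35) and 0.05 (-0.40 to 0.49) in the EEM. HSPA9, the HSP70 of the matrix, had 0.00 (-0.39 to 0.39) and -0.09 (-0.53 to 0.35).

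Genes that work with these chaperones were counted in lists taken from general knowledge. Over all genes tested, 4.95% were called lower and 1.4% higher in the ED, and 1.52% and 2.29% in the EEM. An unadjusted p under 0.05 (edgeR) was found for 2902 of 15733 genes in the ED and for 2016 of 14718 in the EEM. Of 25 cochaperones of HSP70 and HSP90, 0 were called in either tissue, with 1 at an unadjusted p under 0.05 in each. Likewise, 0 of 15 genes of the TRiC chaperonin and prefoldin, which fold actin and tubulin, were called, with 1 at an unadjusted p under 0.05 in each tissue. Of 15 mitochondrial chaperones and proteases tested and 32 proteasome genes tested, 0 were called and 0 had an unadjusted p under 0.05. Median log2 fold changes of these lists lay between -0.11 and 0.02.

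Of 40 further genes of ER folding and the unfolded protein response, 1 was lower in the ED of IVP embryos and 2 in the EEM, beside 4.95% and 1.52% of all genes, and 9 and 6 had an unadjusted p under 0.05. HERPUD1, which takes part in the degradation of ER proteins, was called in both, with log2 fold changes of -0.77 (SE 0.23, adjusted p = 0.0483) in the ED and -1.15 (SE 0.27, adjusted p = 0.0138) in the EEM. PPP1R15A, the phosphatase subunit that restarts translation after stress, was called in the EEM (-1.26, SE 0.22, adjusted p = 0.00108). The medians of the list were 0.14 in the ED and -0.11 in the EEM.

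Immediate early genes respond within minutes to handling, growth factors and stress. Of 27 tested, 6 were lower in IVP in the ED and 15 in the EEM, where 4.95% and 1.52% of all genes were lower, and 0 were higher in either, with median log2 fold changes of -0.77 and -1.10. FOS, the best known of them, ranged from 37.5 to 96.0 CPM in IVP and from 121 to 1127 CPM in IVV discs, and the groups did not overlap. Its log2 fold change was -2.37 (SE 0.38, adjusted p = 0.000428) in the ED and -2.90 (SE 0.34, adjusted p = 9.38e-06) in the EEM. The summed level of the 27 genes was 1004 to 3688 CPM in IVP and 2675 to 7604 CPM in IVV discs, and 1272 to 3950 CPM in IVP and 3848 to 10476 CPM in IVV EEM. Whether the difference in these genes plays a part in that of HSPA1A, HSPA6 and DNAJB1 was not tested. Of the 7 epiblast markers tested in the ED, 1 was lower (POU5F1, log2 fold change -1.72, adjusted p = 0.00479) and 1 was higher (DPPA4, 1.00, adjusted p = 0.0248). The summed level of 9 epiblast markers, the 7 tested among them, was 233 to 580 CPM in IVP and 225 to 999 CPM in IVV discs, and their part in the values of the members was not tested. In the EEM, 0 of 6 epiblast markers were lower and 1 was higher (LIN28B). Of the trophoblast markers 1 of 15 was lower in the ED and 0 of 14 were called in the EEM, with 0 at an unadjusted p under 0.05. Of the hypoblast markers 0 of 9 were called in the ED, with 1 at an unadjusted p under 0.05, and 1 of 9 was lower in the EEM. Of the maternal uterus markers 0 of 5 and 0 of 4 were called, with 1 and 0 at an unadjusted p under 0.05, and maternal blood genes were too low to be tested.

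Levels of HSPA6 and DNAJB1 in the ED and in the EEM of the same embryo were correlated, and both libraries of an embryo share the animal. In the 8 IVV embryos with both tissues, log2 CPM in the ED and in the EEM was correlated for the 36 named members, with exact permutation tests (two-sided) and adjustment over these 36 relations. Pearson's r was above zero for 30 of the 36, with a median of 0.78, and 17 of the 36 had an adjusted p under 0.05, or 6 by Spearman's rho. Over all 14886 genes tested between the tissues the median r was 0.63, 87.7% were above zero (83.3% of the 36) and the same exact test gave 40.5% of them an unadjusted p under 0.05 (58.3% of the 36), so both tissues of an embryo went together over genes at large. For HSPA6, r was 0.90 (exact permutation p = 0.00273, adjusted p = 0.0149) and Spearman's rho was 0.88 (exact permutation p = 0.00724, adjusted p = 0.0435). Without the 2 embryos farthest from the median, r was 0.74. For DNAJB1, r was 0.86 (exact permutation p = 0.00561, adjusted p = 0.0224), rho was 0.95 (exact permutation p = 0.00114, adjusted p = 0.0411), and r without 2 embryos was 0.83.

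For HSPA1A, r was 0.78 (exact permutation p = 0.0166, adjusted p = 0.0374) and 0.79 without 2 embryos, whereas rho was 0.62 (exact permutation p = 0.115, adjusted p = 0.197). BAG3 had the highest r of the 36, at 0.97 (exact permutation p = 0.000347, adjusted p = 0.00804), with rho at 0.88 (exact permutation p = 0.00724, adjusted p = 0.0435) and r at 0.84 without 2 embryos. For HSPA5, r was 0.51 (exact permutation p = 0.191, adjusted p = 0.300), with rho at 0.50 (exact permutation p = 0.216, adjusted p = 0.299) and r at 0.40 without 2 embryos. For HSP90B1, r was 0.11 (exact permutation p = 0.784, adjusted p = 0.806) and for PDIA4 it was -0.24 (exact permutation p = 0.562, adjusted p = 0.652), with rho at 0.29 (adjusted p = 0.644, exact permutation) and -0.26 (adjusted p = 0.644, exact permutation) and r at 0.19 and -0.69 without 2 embryos. For PDIA3, r was 0.85 (exact permutation p = 0.0206, adjusted p = 0.0436) but 0.02 without 2 embryos, so that relation rested on those embryos, and rho was 0.60 (exact permutation p = 0.132, adjusted p = 0.216).

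**Figure D4:**
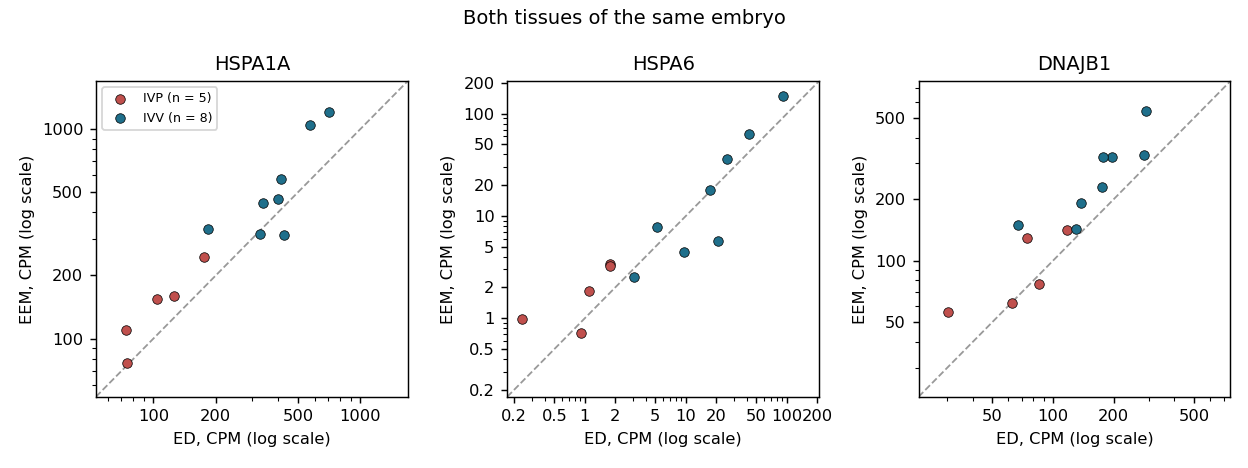
TMM-scaled CPM in the ED (horizontal, log scale) against the EEM (vertical, log scale) of the same embryo for HSPA1A, HSPA6 and DNAJB1, with 5 IVP embryos in red, 8 IVV embryos in blue and the line of equal level dashed. IVP embryos lie at the lower left, and the highest points are those of VE28 for HSPA1A and DNAJB1 and of VE5 for HSPA6.

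The inducible genes were also compared with each other within the IVV embryos, in 6 relations. In the 9 IVV discs, HSPA1A and DNAJB1 had an r of 0.87 (exact permutation p = 0.00269, adjusted p = 0.0162) and a rho of 0.85 (exact permutation p = 0.00607, adjusted p = 0.0364), with r at 0.64 without the 2 farthest embryos. HSPA1A and HSPA6 had an r of 0.77 (exact permutation p = 0.0145, adjusted p = 0.0290) and a rho of 0.78 (exact permutation p = 0.0172, adjusted p = 0.0419), with r at 0.84 without 2 embryos. In the 8 IVV EEM, HSPA1A and DNAJB1 had an r of 0.84 (exact permutation p = 0.00771, adjusted p = 0.0231) and a rho of 0.79 (exact permutation p = 0.0279, adjusted p = 0.0419), with r at 0.75 without 2 embryos. HSPA1A and HSPA6 had an r of 0.79 there (exact permutation p = 0.0208, adjusted p = 0.0312) that fell to 0.29 without 2 embryos, with rho at 0.69 (exact permutation p = 0.0694, adjusted p = 0.0833). HSPA6 and DNAJB1 had an r of 0.67 in the ED (exact permutation p = 0.0496, adjusted p = 0.0595), with r at 0.64 without 2 embryos, and a rho of 0.77 (exact permutation p = 0.0214, adjusted p = 0.0419), so that the relation passed by rho and not by r. In the EEM their r was 0.54 (exact permutation p = 0.166, adjusted p = 0.166), with r at 0.13 without 2 embryos, and rho was 0.40 (exact permutation p = 0.327, adjusted p = 0.327).

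Of the members tested in the ED, HSPA6 also had the largest spread. The SD of its log2 CPM within groups was 1.46, beside a median of 0.50 over the 76 members and 0.59 over all genes tested. In the EEM, its SD was 1.97, beside 0.48 over the 73 members and 0.54 over all genes. HSPA9, at 0.38 in both tissues, was among the members with the smallest spread, as was HSPA4, at 0.41 and 0.35.

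The ED and the EEM were then compared within the 13 embryos that gave both, with the embryo as a block. More members were called lower than higher in the ED, and the inducible HSPA1A and DNAJB1 were among them. Of 75 members tested, 10 were lower in the ED (13.3%), against 8.16% of all 14898 genes tested, and 3 were higher (4.0%), against 12.8% of all genes. Of these 3, HSPA12A and HSPB2 had passed the filter on low counts only through the ED. The median log2 fold change of the members was -0.18, beside -0.08 over all genes, and 58 of the 75 were below zero, beside 9112 of the 14898 genes. DNAJB1 was lower in the ED in 11 of 13 embryos (log2 fold change -0.50, SE 0.11, adjusted p = 0.00301). HSPA1A was also lower in 11 of 13 (-0.38, SE 0.11, adjusted p = 0.0196), and without VE5 its adjusted p was 0.052. HSPA6 had a log2 fold change of -0.21 (95% interval -0.65 to 0.23). In IVPF13 the ED and EEM libraries did not deviate together as in the other embryos, and without it 12 members were called lower and 3 higher. Without VE5, 6 members were called lower and 3 higher.

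The other members lower in the ED were J-domain genes of several compartments, HSPE1 and BAG5. DNAJB2, which hands clients to the proteasome, had a log2 fold change of -0.67 (SE 0.16, adjusted p = 0.00431) and was lower in 11 of 13 embryos. DNAJB4 was lower in 13 of 13 (-0.42, SE 0.11, adjusted p = 0.00914). DNAJC21, which takes part in the making of ribosomes, was lower in 12 of 13 (-0.43, SE 0.09, adjusted p = 0.00221), and so were HSPE1 (-0.44, SE 0.11, adjusted p = 0.0047), DNAJA3 of the mitochondrion (-0.31, SE 0.09, adjusted p = 0.0177) and DNAJC13 of endosomes (-0.27, SE 0.08, adjusted p = 0.0277). BAG5 (-0.31, adjusted p = 0.0418) and DNAJC1 of the ER membrane (-0.35, adjusted p = 0.0437) completed the 10 and were named after their values were seen. For DNAJC13 the call was lost in 3 of 13 fits that left out an embryo, VE19, VE26 or VE5, with adjusted p of 0.0516 to 0.0685.

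The members higher in the ED were distant or tissue-restricted relatives at low levels. HSPA12A, a distant HSP70, ranged from 0.135 to 1.10 CPM over all 16 ED libraries and from 0 to 0.265 CPM over the 14 EEM libraries. HSPB2, a small heat shock protein known from muscle, ranged from 0.138 to 1.14 CPM in the ED and from 0 to 0.215 CPM in the EEM. Both passed the filter on low counts through the ED alone, so their calls as higher there (log2 fold changes 2.04 and 1.81) follow from the filter and are given as a description. HSPA12B, known from endothelial cells, was higher in 12 of 13 (0.45, SE 0.13, adjusted p = 0.0174), at 3.44 to 9.30 CPM in the ED and 2.39 to 8.77 CPM in the EEM. Epiblast markers moved with these, with 6 of 7 tested higher in the ED, and the part of cell composition was not tested.

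**Figure D5:**
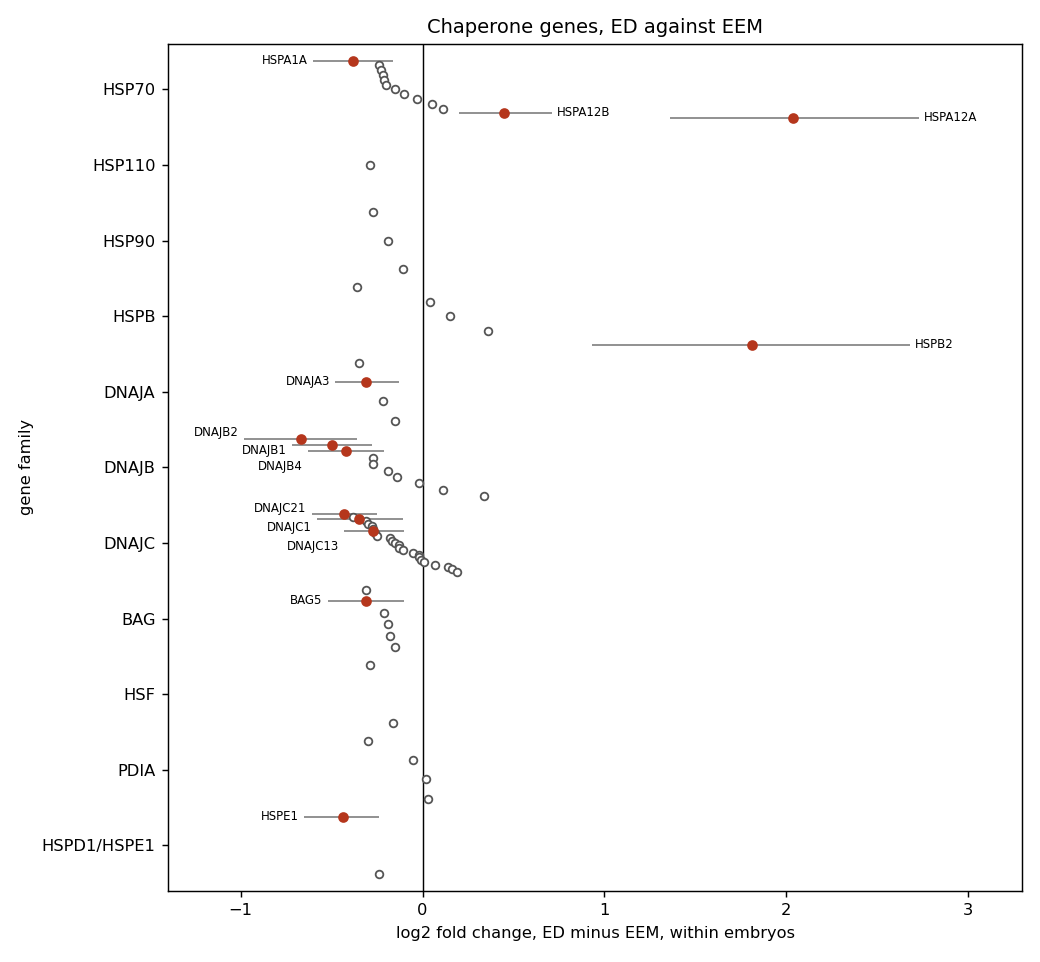
Log2 fold change of ED against EEM within embryos for the 75 members tested, by gene family. Red points are members with an adjusted p under 0.05 (edgeR), with grey lines for the 95% interval. Most points lie slightly left of zero, and HSPA12A and HSPB2, at 2.04 and 1.81, which passed the filter on low counts through the ED alone, lie far to the right.

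In the related lists of chaperone genes, most calls in this comparison were also lower in the ED. Of all genes tested, 8.16% were lower and 12.8% higher. Of 15 TRiC and prefoldin genes, 4 were lower in the ED and 0 higher (median log2 fold change -0.25), with PFDN6 at -0.44 (adjusted p = 0.00116). Of 40 ER folding genes, 6 were lower and 0 higher (median -0.19), among them the stress factors ATF4 (-0.46, adjusted p = 0.0046) and DDIT3 (-0.52, adjusted p = 0.012). Of 25 cochaperones, TOMM70, a receptor at the mitochondrial surface, was lower (-0.46, adjusted p = 0.00125), and FKBP5, a partner of HSP90 at steroid receptors, was higher (1.14, SE 0.20, adjusted p = 0.000352). Of 32 proteasome genes and 15 mitochondrial chaperones and proteases, 1 each was lower. Of 27 immediate early genes, 8 were lower in the ED and 0 higher. Of the trophoblast markers 5 of 14 were lower and 1 was higher, and of the hypoblast markers 0 of 9 were lower and 4 were higher. Of the 4 maternal uterus markers tested 0 were called, with 2 at an unadjusted p under 0.05.

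Whether the difference between IVP and IVV embryos was itself different in the ED and the EEM was tested with the interaction of tissue and procedure in the 26 libraries of these embryos. Of 77 members tested, 0 were called lower, against 0.918% of all 16784 genes tested, and 0 higher, against 0.107% of all genes. With edgeR, 2 members had an unadjusted p under 0.05, and DESeq2 and limma voom also called 0 members. The log2 difference of differences (ED minus EEM in IVP, less the same in IVV) was -0.05 (95% interval -0.50 to 0.40) for HSPA1A and 0.21 (-0.23 to 0.66) for DNAJB1. For HSPA6, it was -0.93 (-1.77 to -0.08, adjusted p = 0.463). DNAJC12 had the largest value by size, at -2.45 (SE 0.96, adjusted p = 0.32), on few counts. It passed the filter on low counts mainly through the IVV discs. For HSP90AA1 and HSPA5, it was 0.00 (-0.44 to 0.45) and -0.06 (-0.58 to 0.46). The related lists had 0 calls as well, with 0 of 25 cochaperones, 0 of 40 ER folding genes and 0 of 27 immediate early genes called (1, 0 and 7 at an unadjusted p under 0.05). Of the maternal blood genes, both that were tested (CD52 and S100A8) were called lower.

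Of the members not tested in the ED and the EEM, the lowest were at or near zero. DNAJB8, DNAJC5B, HSPB7 and PDIA2 did not pass the filter on low counts in either tissue, and PDIA2, a disulfide isomerase known from the pancreas, had at most 12 counts in any library. DNAJC12, HSPA12A and HSPB2 were tested between IVP and IVV in the ED only. In the EEM, DNAJC12 had at most 12 counts, HSPA12A at most 14 and HSPB2 at most 12, so that differences between procedures were not detectable at this depth.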

How the data were processed

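Per the labels and the study's methods, poly(A) RNA was sequenced as non-stranded paired reads, which the authors filtered with SOAPnuke, aligned with STAR 2.7.0b to ARS-UCD1.3 and counted per gene with featureCounts (Subread 2.0.3). FastQC 0.11.9 and Trimmomatic are also listed in the submitters' processing notes. The deposited values are raw counts for 35092 Entrez gene IDs in 30 libraries, without normalization. RefSeq (ARS-UCD2.0) gave a symbol for 31630 IDs, which hold 99.51% of the counts, and its positions were not used. Reads of an antisense or overlapping gene cannot be told apart without strand.

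The tests used edgeR 4.0.16 under R 4.3.3, with TMM factors, filterByExpr with at least 10 counts, the quasi-likelihood test (two-sided) and Benjamini-Hochberg adjustment over all genes tested, at 0.05. IVP and IVV were compared within each tissue with 1 surrogate variable from svaseq (sva 3.50.0). The ED and the EEM, and the interaction of tissue and procedure, were tested in the 26 libraries of 13 embryos with embryo as a block. The tissues are paired by embryo in the sample titles. Deviations from the group means of the same embryo correlated at 0.271 to 0.641 across genes in 12 embryos and at -0.19 in IVPF13. Log2 CPM used a prior count of 2, and 95% intervals were taken from the fitted SE. Embryos are the replicates. They share few cows, so p-values cover the spread between these embryos. Scripts were tested on simulated data.

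The members and gene lists were chosen with earlier results of these data known. Named genes were 24 fixed representatives of the families, members called between IVP and IVV (up to 12 per tissue and direction), called members of the interaction (up to 6), and up to 8 called members per direction for ED against EEM by p, and of each related list up to 3 called genes per comparison. Lists covered cochaperones, TRiC and prefoldin, ER folding, mitochondrial chaperones and proteases, the proteasome, immediate early genes, and markers of epiblast, trophoblast, hypoblast, maternal blood and maternal uterus. Alternatives were DESeq2 1.42.0, limma voom (limma 3.58.1), RLE normalization, other filters, 0 or 2 surrogate variables, the letter in the sample titles as a term, no replicate block, leaving out each embryo, and, added after seeing the data, XIST as a covariate and counts divided by 2. The last was tried because small even counts were more frequent than odd ones (15257 values of 1, 19289 of 2 and 13344 of 3), as they would be if both mates of a read pair were counted. Whether a count is a read or a pair is not given in the sources used here, so the number of fragments behind a printed count is uncertain. Methylation data were not analysed here.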

Additional observations from a re-analysis of the deposited data

Results flagged for a closer look

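Each named member was checked in each group for a library far from the others by Dixon's test on log2 CPM, not on CPM. Of 144 groups of libraries over 36 members, 8 were flagged, and chance alone flags about 5%. Each flag is the lowest library of its group. In the EEM of IVV embryos, VE28 had 54.3 CPM of DNAJA3 (others 105 to 145) and 377 CPM of HSPA9 (others 660 to 854). HSPE1 and DNAJC19 were highest in the same library, at 1588 and 61.4 CPM (group medians 501 and 26.5). In the same group, VE29 had 5.91 CPM of HSF2 (others 10.2 to 16.3) and 0 CPM of HSPB2 (others 0.0925 to 0.215), and VE26 had 0 CPM of HSPA12A (others 0.0855 to 0.265). In the ED of IVV embryos, VE29 had 812 CPM of HSP90B1 (others 1289 to 1912), and VE24 had 179 CPM of DNAJA1 (others 258 to 321). In the EEM of IVP embryos, IVPF14 had 0 CPM of HSPA1L (others 0.408 to 0.894). The values of 0 are counts of 0, which allow up to 3 counts, and intervals of this kind cover counting error only.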

How the results depend on the processing

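The number of members called between IVP and IVV was 6 in the ED, and ran from 4 to 8 over 10 alternatives and from 4 to 8 with each embryo left out. In the EEM it was 4, from 2 to 5 over 10 alternatives and from 3 to 5 with each embryo left out. The value of 2 came from requiring 10 counts in every library, which removes HSPA6 by construction and under which DNAJC22 lost its call (adjusted p = 0.0561). For ED against EEM, 13 were called, from 9 to 18 with each embryo left out, and 2 without the replicate block, so these calls rest on the paired comparison. The interaction had 0 calls in every alternative. HSPA1A, HSPA6 and DNAJB1 kept direction and call between IVP and IVV in every fit that tested them, including each embryo left out. For HSPA6 in the EEM, the fit without VE19 gave an implausibly small p-value, so its call is not relied on. The log2 fold change of HSPA6 was -3.78 in the ED with limma voom and -3.62 in the EEM with the title letter as a term. DNAJC22 lost its call in the ED with 2 surrogate variables, XIST as a covariate or without IVPF13, and in the EEM in 6 of 10 alternatives. DNAJB5 lost its call in the ED without a surrogate variable, with XIST and with counts divided by 2. The cause was not tested. Low counts limit DNAJB13, HSPB2 and HSPA12A.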
